A study of Mus musculus with 6 samples.

Results

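The centromeric end of mouse chromosome 11 was examined for contacts with the Ikzf1 gene, as seen in one 4C-seq library of thymocytes. Members were all DpnII fragments of chromosome 11 (mm9 build) whose midpoint lay below position 10083520, which is more than 1.5 Mb from the bait at 11583520 on the side of the centromere. These were 17697 of the 295446 fragments of the chromosome, the first with its midpoint at 3004291. The 4C protocol cuts fixed chromatin, joins ends that lay close together in the nucleus and counts the fragments joined to a single bait. The series holds 6 libraries from 3 baits, and the library used here was made from thymocytes positive for both CD4 and CD8 (DP), sorted by FACS from the thymus of 4-week-old c57/Bl6 mice with no other treatment named. The cells were fixed for 10 min in 2% formaldehyde, and DpnII and Csp6I were the restriction enzymes. This is a single library, so no replicate error and no test between libraries is available, and the identity of the cells could not be checked, since 4C counts carry no expression markers.

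Ikzf1 encodes Ikaros, a zinc-finger transcription factor of lymphocyte development that is active in thymocytes. Contacts over many megabases are rare for any fragment, and across a chromosome they are known to be more frequent between stretches of the same chromatin type: gene-rich, active stretches meet other active stretches, and gene-poor, inactive ones meet their like. In the mouse the centromere lies at the very start of the chromosome, and the first 3 Mb of chromosome 11 are unsequenced in mm9, so the fragments examined here run from the first sequenced base towards the bait.

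At these distances most fragments have no read, and the measure used throughout is therefore the detected share, the percent of fragments with at least 1 read. The 4 bins of 250 kb with the highest detected share are each represented here by their most-read fragment of up to 300 bases, so that the size and make-up of the counted unit can be seen. Sequences are from the plus strand of mm9, 5′ to 3′. Capitals mark the DpnII sites (GATC) at both ends and, inside, any Csp6I site (GTAC), where the circle for inverse PCR is closed.
Tns3, highest bin (chr11:8522874-8522991): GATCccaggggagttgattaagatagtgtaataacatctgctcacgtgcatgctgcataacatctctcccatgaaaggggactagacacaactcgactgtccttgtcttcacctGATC
Sfi1, second bin (chr11:3061981-3062231): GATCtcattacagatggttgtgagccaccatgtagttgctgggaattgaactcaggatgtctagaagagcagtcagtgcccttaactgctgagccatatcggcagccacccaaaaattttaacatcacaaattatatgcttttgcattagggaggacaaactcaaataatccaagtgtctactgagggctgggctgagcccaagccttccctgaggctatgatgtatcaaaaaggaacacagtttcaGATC
6.25 to 6.5 Mb bin (chr11:6377113-6377146): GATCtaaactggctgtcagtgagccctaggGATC
8.25 to 8.5 Mb bin (chr11:8320307-8320602): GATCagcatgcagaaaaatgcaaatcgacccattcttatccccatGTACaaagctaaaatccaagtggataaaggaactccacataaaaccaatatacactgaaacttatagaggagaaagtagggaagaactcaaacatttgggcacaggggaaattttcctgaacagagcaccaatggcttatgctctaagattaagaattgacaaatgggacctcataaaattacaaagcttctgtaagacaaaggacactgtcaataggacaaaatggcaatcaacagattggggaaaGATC

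The Tns3 fragment has 118 bases and 943 reads, and neither of its 25-base ends has another copy in mm9, exact or with up to 2 mismatches. The Sfi1 fragment has 251 bases and 713 reads. Its left end occurs 5406 times in mm9, its right end 1 time. The fragment of the 6.25 to 6.5 Mb bin lies outside protein-coding genes, has 34 bases and 496 reads, and each end occurs 1 time. The last fragment lies 11.2 kb from Tns3, has 296 bases and 1183 reads, and is the only one of the 4 with a Csp6I site. Its right end occurs 2 times, with 1587 further copies within 2 mismatches. The first of the 4 is therefore the best placed, while the position of reads on the repeated ends depends on the mapping.

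Ikzf1 was in contact with the centromeric end more often than with the stretch at the same distances on the telomeric side. On the centromeric side 596 of 17697 fragments were detected, a share of 3.37% (95% Clopper-Pearson interval 3.11 to 3.64). At the mirrored positions, 13083611 to 20167007, 214 of 18150 fragments were detected, a share of 1.18% (1.03 to 1.35). The ratio of the shares was 2.86 (95% interval 2.45 to 3.33). Within 1.5 Mb of the bait 14.7% of 7735 fragments were detected, and beyond the mirrored stretch 1.38% of 251864, so the centromeric end lay between the surroundings of the bait and the far chromosome. The telomeric mirror lay below the far chromosome. All such intervals cover the counting of fragments only and treat neighbouring fragments as independent.

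Read counts gave the same order. The centromeric side held 93963 of the 2314166 reads deposited for chromosome 11, or 4.06%, and 11% of its 5420 detected fragments. Reads on other chromosomes were not analysed here. This made 5.31 reads per fragment, against 1.63 in the mirror. A detected centromeric fragment had a median of 35 reads and quartiles of 7 and 215.5. Of the 596, 57 had a single read, 177 had under 10, 218 had at least 100 and 10 had at least 1000. In the mirror the median was 28.5 reads. The sides thus differed more in how many fragments were detected than in the reads of a detected one.

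The sides also differ as DNA, which bears on how they can be compared. The centromeric side holds 91 annotated protein-coding genes, or 12.8 per Mb, and the mirror 18, or 2.54 per Mb. Protein-coding genes cover 46.7% of the centromeric fragments and 11.1% of the mirrored ones. GC content was 44.4% against 39.4%, and 87.5% against 79.0% of fragments had an end found at 1 place in mm9.

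Inside protein-coding genes the shares were 4.09% and 2.28%, a ratio of 1.79 (1.32 to 2.43), and outside them 2.74% and 1.04%, a ratio of 2.63. Far from any gene start, over 100 kb away, the centromeric share was 1.74% and the mirrored one 0.702%, a ratio of 2.48 (1.89 to 3.26). Of the 110 detected centromeric fragments of this class, 20 lie in the part of Tns3 with its 3′ end, in the high stretch described below. At 20 to 100 kb the shares were 4.17% and 2.20%, a ratio of 1.89 (1.43 to 2.50). At 5 to 20 kb the shares were 3.77% and 2.98%, a ratio of 1.27 (0.886 to 1.81). Within 5 kb of a start they were 5.19% and 3.56%, a ratio of 1.46 (0.881 to 2.42). The centromeric share was thus the higher in every class, but in each of the classes near gene starts the interval of the ratio included equal shares. The near classes were not pooled, so the smaller number of fragments in each limits a comparison with the classes further away.

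Sorting the 250 kb bins of both sides by GC content, a choice made after the data were seen, reduced the difference more than position in genes did. In bins under 40% GC the shares were 1.05% and 0.735%, a ratio of 1.42 (0.837 to 2.42), from 3 centromeric and 18 telomeric bins. In bins of 40 to 45% GC they were 1.64% in 12 centromeric bins and 1.83% in 10 telomeric bins, so the order turned, with a ratio of 0.898 (0.694 to 1.16). In bins of at least 45% GC they were 5.29% in 14 centromeric bins and 3.68% in the single telomeric one, a ratio of 1.44 (0.953 to 2.17). Each of the 3 intervals includes equal shares. The centromeric stretch holds nearly all the GC-rich bins, so GC content, gene density and side could be separated only in part, and their parts in the difference were not tested.

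**Figure D1:**
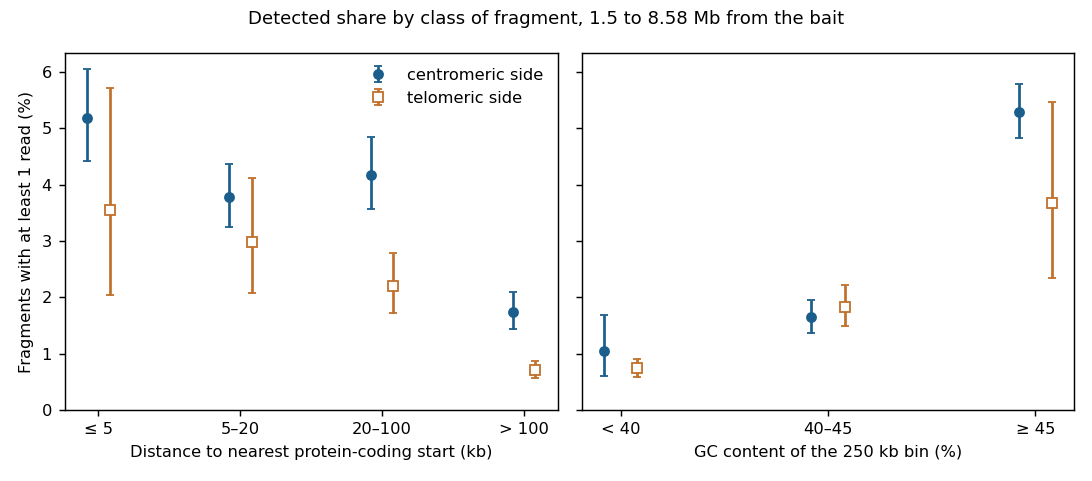
Detected share (percent of fragments with at least 1 read, from 0) of centromeric and mirrored telomeric fragments, split by distance to the nearest protein-coding gene start in kb and by the GC content of the 250 kb bin in percent. Points are shares and bars are 95% Clopper-Pearson intervals. The sides stand apart over 100 kb from a start (1.74% against 0.702%) and meet in bins of 40 to 45% GC (1.64% against 1.83%). Of the 110 detected centromeric fragments over 100 kb from a start, 20 lie in the part of Tns3 with its 3′ end.

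Within the centromeric side the share differed little with the presence of a Csp6I site and somewhat with length, and most with the uniqueness of the fragment ends. Fragments with a Csp6I site were detected at 3.51% and those without at 3.26%. By length the shares were 2.74% under 100 bp, 3.39% from 100 to under 300 bp, 3.64% from 300 to under 1000 bp and 3.71% at 1000 bp and above. Fragments with no unique end were rarely detected, 15 of 2212 on the centromeric side (0.678%, against 3.75% of those with one) and 10 of 3810 in the mirror.

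The contacts were spread unevenly along the stretch. In bins of 1 Mb, 8 to 9 Mb was highest with 161 detected fragments (6.46%), and 3 to 4 Mb followed with 119 of 2459 (4.84%). Between them lay 4 to 5 Mb with 82 (3.33%), 5 to 6 Mb with 91 (3.77%) and 6 to 7 Mb with 91 (3.57%). The low bins were 7 to 8 Mb with 21 (0.845%) and 9 to 10 Mb with 28 (1.07%). Among all 116 ranked bins of 1 Mb on chromosome 11 the 8 to 9 Mb bin ranked 1, the 3 to 4 Mb bin 2, and the 5 to 6, 6 to 7 and 4 to 5 Mb bins 5, 6 and 10. The 9 to 10 Mb bin ranked 64 and the 7 to 8 Mb bin 87, although both lie closer to the bait than the 3 to 4 Mb bin.

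At matched distance the telomeric bin had the lower share at each of the 7 positions, but at 7 to 8 Mb (0.845% against 0.81%, interval of the ratio 0.57 to 1.90) and at 9 to 10 Mb (0.799 to 2.46) the difference was within counting error. The mirror of 8 to 9 Mb had 13 detected fragments (0.49%), that of 9 to 10 Mb 21 (0.77%), and those of 4 to 5, 5 to 6 and 6 to 7 Mb had 17 (0.70%), 27 (1.04%) and 39 (1.57%). The mirror of 3 to 4 Mb, the most distant, had the highest telomeric share, 74 of 2464 (3.0%). The ratio of 3 to 4 Mb over its mirror was 1.61 (1.21 to 2.14). Without the first 250 kb and its mirror it was 1.39 (0.962 to 2.02), and with fragments that hold a Csp6I site 1.49 (0.985 to 2.25), both intervals that include equal shares. Inside protein-coding genes alone the order turned, with 4.77% against 5.51% and a ratio of 0.866 (0.560 to 1.34). This interval includes equal shares too. Against the rest of the centromeric side the 3 to 4 Mb bin had a ratio of 1.55 (1.27 to 1.88). Without its first 250 kb this dropped to 1.11 (0.857 to 1.43), an interval that includes equal shares.

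In bins of 250 kb the stretch split into few high bins and long low runs. The 8.5 to 8.75 Mb bin was highest with 94 of 633 fragments, 14.8% (12.2 to 17.9), where the mirrored bin had 7 of 611 (1.15%). The first bin, 3.0 to 3.25 Mb, followed with 55 of 612, 8.99% (6.84 to 11.5), against 4.70% in its mirror. The 6.25 to 6.5 Mb bin had 43 of 622, 6.91% (5.05 to 9.20), against 2.33%. The 8.25 to 8.5 Mb bin had 41 of 596, 6.88% (4.98 to 9.22), against 2 of 693 (0.289%). The intervals of the last 2 overlap each other and that of the first bin, so only the 8.5 to 8.75 Mb bin stands apart from the other 3 beyond counting error.

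Within 3 to 4 Mb the share was lower from bin to bin away from the first sequenced base: 8.99%, then 5.19%, 3.43% and 1.95%. Their mirrors had 4.70%, 5.54%, 1.46% and 0.608%, so the second bin was no higher than its telomeric counterpart. The 4.0 to 4.25 Mb bin had 4.46% against 0.789%, and the 5.0 to 5.25 Mb bin 5.15% against 0.575%. The lowest bins were 6.75 to 7.0 Mb with 3 of 670 (0.448%), 9.25 to 9.5 Mb with 4 of 637 (0.628%), 7.25 to 7.5 Mb with 5 of 645 (0.775%) and 9.75 to 10.0 Mb with 5 of 636 (0.786%). Of these, the 9.75 to 10.0 Mb bin is the closest to the bait of all full bins.

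Over both arms of the profile beyond 1.5 Mb, 464 bins of 250 kb could be ranked, 29 centromeric with a median share of 2.69% and 435 telomeric with a median of 1.04%. Taking 5% as a high share, 15 bins or 3.23% of all reached it, and 6 of them were among the 29 centromeric ones. The 4 highest centromeric bins ranked 1, 2, 7 and 8 on the chromosome. The 8.5 to 8.75 Mb bin thus had the highest detected share of any bin of the chromosome more than 1.5 Mb from Ikzf1.

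**Figure D2:**
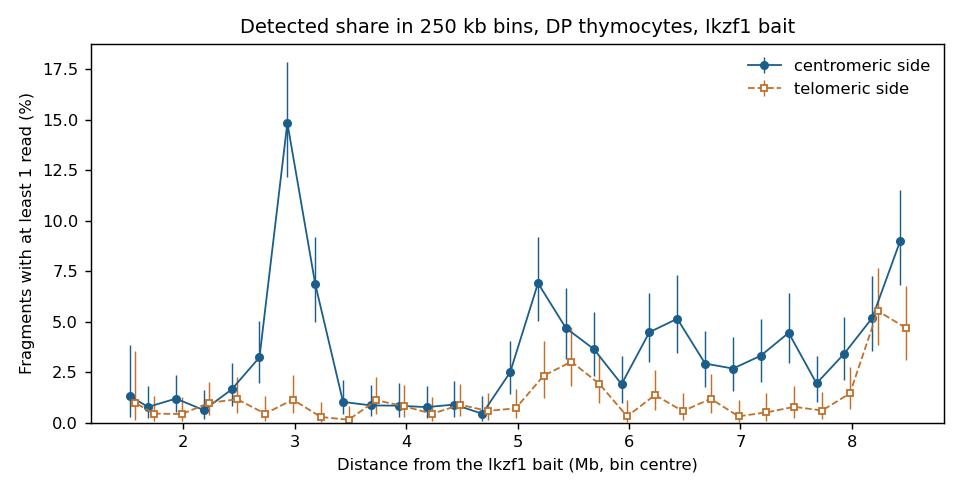
Detected share (percent of fragments, from 0) in bins of 250 kb against distance from the Ikzf1 bait in Mb, for the centromeric side and its telomeric mirror. Bars are 95% Clopper-Pearson intervals. The highest bin (14.8%) lies about 3 Mb from the bait on the centromeric side, and both sides have raised shares at the far end (8.99% and 4.70%).

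The same bins were described in parts of the fragments, which does not test them, since they were picked on all fragments together. When odd and even fragments were counted apart, the 4 highest bins had 17.0% and 12.7%, 8.50% and 9.48%, 5.47% and 8.36%, and 7.38% and 6.38%. Over the 29 bins the shares of odd and even fragments correlated with r = 0.876 and rho = 0.795, a description of 1 library in which the bins share depth. Counting only fragments with at least 10 reads left 62, 44, 29 and 33 fragments in these bins, or 9.79%, 7.19%, 4.66% and 5.54%. With only fragments that have a unique end the shares were 16.5%, 9.91%, 7.62% and 7.62%.

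The highest bin lies at Tns3, which encodes tensin 3, an adaptor of integrin adhesions that is used mainly in adherent cells. Tns3 is on the minus strand at 8331655 to 8564538 of chromosome 11. Over the gene body 59 of 549 fragments were detected (10.7%). Cut at its middle, the part with the 3′ end had 20 of 283 (7.07%) and the part with the gene's start 39 of 266 (14.7%). The 162 kb between the start of Tns3 and the end of Pkd1l1, positions 8564539 to 8726710, hold no protein-coding gene and 1 annotated pseudogene, Gm11990. Here 68 of 433 fragments were detected, 15.7% (12.4 to 19.5), against 0.775% at the mirrored positions. The share was as high upstream of Tns3 as within the start part of the gene.

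Finer bins placed the highest shares around and upstream of the start of Tns3. In bins of 50 kb from 8.45 to 8.75 Mb the shares were 15.1%, 15.9%, 18.2%, 12.1%, 15.9% and 11% in order of position. The 50 kb after them, towards the bait, had 2.96% (0.813 to 7.41), an interval that overlaps that of the bin before it (5.62 to 18.8). On the other side, the bins from 8.45 down to 8.30 Mb had 5.04%, 6.61% and 8.53%. In the last of these 34.1% of fragments lie in Tns3, which ends at 8331655, so that bin extends past the gene. From 8.25 to 8.30 Mb, wholly past the end of the gene, 0 of 121 fragments were detected. This allows a share of up to 2.48% if 3 counts are taken as the limit of a count of 0, or 3.0% as the upper Clopper-Pearson bound. Pkd1l1, a polycystin family member known for its role in left-right patterning of the embryo, had 12 of 335 fragments detected over its body (3.58%), close to the share of the whole side. At 50 kb the edges of the stretch are thus known only within counting error, and they were chosen after its values were seen.

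**Figure D3:**
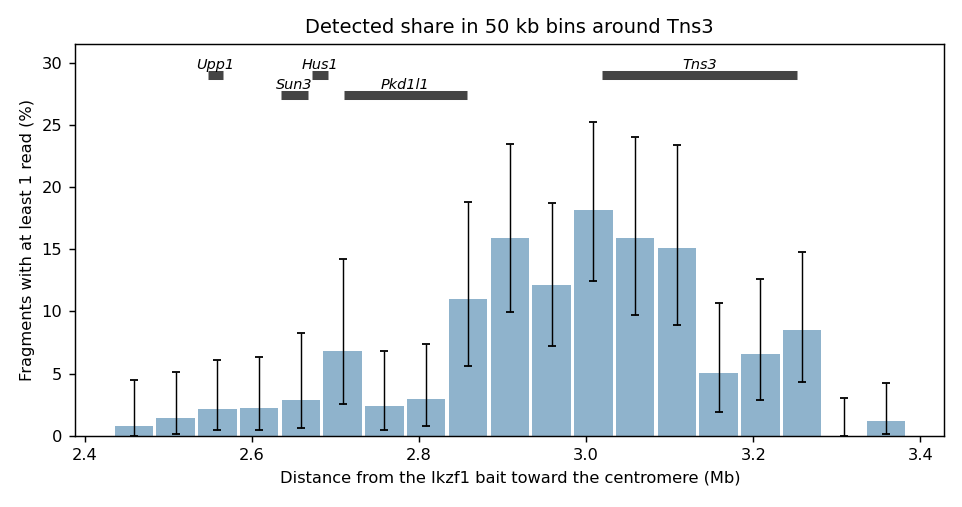
Detected share (percent of fragments, from 0) in bins of 50 kb around Tns3 against distance from the Ikzf1 bait towards the centromere in Mb, with protein-coding genes drawn above as dark bars. Error bars are 95% Clopper-Pearson intervals. The 6 bins around and upstream of the start of Tns3, its end nearer the bait, hold 11% to 18.2%.

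The longest stretches of the side with few or no protein-coding genes had low shares. Between Igfbp3 and Tns3, 1.22 Mb with no protein-coding gene, 29 of 3146 fragments were detected (0.922%). Between Ramp3 and Adcy1 12 of 1038 were (1.16%). Nearer the bait, Abca13, a very large gene for an ABC transporter, had 12 of 1245 over its body (0.964%), and the 499 kb from its end to the limit 14 of 1330 (1.05%). These long stretches lay far below the 15.7% of the gene-free 162 kb beside Tns3, but not all DNA away from genes was low. All fragments of the side outside protein-coding genes had 2.74%, and the 162 kb beside Tns3 gave 68 of the 258 detected among them. The 50 kb from 5.35 to 5.40 Mb, with no protein-coding gene, had 9 of 149 (6.04%, 2.80 to 11.2). From 3.5 to 3.55 Mb, where 2.06% of fragments lie in a gene, 8 of 97 were detected (8.25%, 3.63 to 15.6). Both 50 kb bins were picked after their values were seen, and the interval of the first includes the 3.37% of the side. Other 50 kb bins with no protein-coding gene had none detected, for example 6.85 to 6.90 Mb with 0 of 146.

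At the chromosome end, the high bin holds a run of genes, and its share was 9.0% for fragments inside protein-coding genes and 8.95% for those outside them. Sfi1, for a centrin-binding protein of the centrosome, had 18 of its 132 fragments in the bin detected (13.6%). Drg1, for a GTP-binding protein of translation, had 16 of 206. Its span overlaps Sfi1 and wholly contains Eif4enif1, for a protein that carries the cap-binding factor eIF4E into the nucleus. The 7 of 97 fragments of Eif4enif1 are therefore part of those of Drg1. Patz1, a zinc-finger transcription factor that acts in T cell development, had 3 of 59. Pik3ip1, an inhibitor of PI3 kinase found in T cells, had 3 of 27, and Limk2, a kinase of the actin regulator cofilin, 1 of 14. From Sfi1 to Pik3ip1, 3031853 to 3242974, 53 of 538 fragments were detected (9.85%), against 5.04% in the mirror.

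The mirror of this bin on the telomeric side overlaps a group of broadly used genes. From Spred2 to Rab1, 19824378 to 20126859, lie Spred2, an inhibitor of Ras signalling, Actr2, a subunit of the Arp2/3 actin nucleator, and Rab1, a GTPase of the early secretory pathway. In this interval 41 of 693 fragments were detected (5.92%), against 8.43% at its own mirrored positions. In the 905 kb between Meis1 and Spred2, with no protein-coding gene, 34 of 2298 were (1.48%).

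The bin at 6.25 to 6.5 Mb held Ccm2, a scaffold protein of blood vessel junctions that is also expressed outside them, with 12 of 113 fragments detected. Myo1g, a myosin of blood cells that is abundant in T cells, had 4 of 38, H2afv, a histone H2A.Z variant, 3 of 42, and Zmiz2, a transcription coactivator, 3 of 35. Ppia, cyclophilin A, had 1 of 8 in the bin, and Nacad 0 of 4. The 8.25 to 8.5 Mb bin held Tns3 alone of the protein-coding genes, with 36 of 390 fragments (9.23%). Of the 4 lowest bins, only 2 hold a protein-coding gene: Abca13 with 4 of 637 fragments in the 9.25 to 9.5 Mb bin, and Adcy1, an adenylyl cyclase of neurons, with 1 of 94 in the 6.75 to 7.0 Mb bin.

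Counted by gene, with 5 kb added on each side, 80 of the 91 centromeric genes had a detected fragment, with a median share of 3.7%. For 49 genes the share was above the 3.37% of the side. The whole interval lay above it for 13: Sfi1, Tns3, Rnf185, Ccm2, Drg1, Pik3ip1, Tmed4, Myo1g, Hus1, Kremen1, Ogdh, Ppia and Eif4enif1. It lay below for 2, Adcy1 and Abca13. In the mirror 15 of 18 genes had a detected fragment, with a median of 2.35%. Genes next to each other share surroundings and, where they overlap or with the added 5 kb, some fragments, so they are not independent. Eif4enif1, for example, lies wholly within Drg1, and both are among the 13.

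A list of 26 symbols of lymphocyte or broadly used genes matched 27 annotated genes, since Purb is annotated 2 times. Of these, 25 had a detected fragment, 21 lay above the share of the side and 8 with their whole interval, and the median gene had 6.0%. Over all 91 genes of the side the same counts were 80, 49 (53.8%) and 13. Pooled over the list, 154 of 2456 fragments were detected, 6.27% (5.34 to 7.30). The highest were Ppia with 4 of 30 (13.3%), Pik3ip1 with 7 of 54 (13.0%), Myo1g with 7 of 59 (11.9%) and Hus1, a subunit of a DNA damage clamp, with 6 of 52 (11.5%). The lowest were Limk2 with 4 of 162 (2.47%), Upp1, a uridine phosphorylase, with 1 of 59 (1.69%), and 2 with none, Pold2, a subunit of DNA polymerase delta, with 0 of 33, and 1 of the Purb entries with 0 of 35. With so few fragments a gene at 0 says little: by the same limit of 3 counts Pold2 may have up to 9.09% and this Purb entry up to 8.57%, and the upper Clopper-Pearson bound of Pold2 is 10.6%.

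A list of 22 genes used mainly in other tissues had 21 in the region. Of these, 17 had a detected fragment and 8 lay above the share of the side, against 80 and 49 of all 91 genes. The whole interval lay above it for 2, Tns3 and Kremen1, and below it for 2, Adcy1 and Abca13, against 13 and 2 of all 91. The median of the list was 2.17%, and pooled over it 141 of 3899 fragments were detected, 3.62% (3.05 to 4.25). Tns3 was highest with 65 of 584 (11.1%). It was followed by Kremen1, a receptor for the Wnt inhibitor Dickkopf, with 13 of 163 (7.98%), Smtn, a protein of smooth muscle, with 5 of 81 (6.17%), and Igfbp1, a binding protein of insulin-like growth factors made in liver, with 2 of 34 (5.88%). At 0 were Cabp7 (43 fragments), Myl7, the light chain of atrial myosin (31), Nefh, a neurofilament subunit (47), and Ramp3, a receptor-modifying protein (69). Tns3 alone gives 65 of the 141 detected fragments, and without it the share was 76 of 3315 (2.29%). The first list had the higher median and pooled share, but single genes overlapped widely. Tns3, Kremen1 and Smtn lay above the median of the first list. Ascc2, Nf2, Limk2, Upp1, Pold2 and a Purb entry of the first list lay below the share of the side. Both medians stand beside 3.7% over all genes of the side, and both lists were assembled with earlier results known, so neither is singled out by these counts.

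The telomeric list had 11 of 12 genes in the mirror, 10 with a detected fragment and 9 above the share of that side, where 13 of all 18 genes (72.2%) lay above it. The median of the list was 2.29% and its pooled share 2.93%. Spred2 was highest with 22 of 264 (8.33%), then Pno1, an assembly factor of the small ribosomal subunit (7.32%), then Rab1 (5.95%) and Sec61g, a subunit of the protein channel of the endoplasmic reticulum (4.76%). Meis1, a homeobox factor of blood stem cells, had 1 of 302 (0.331%), Etaa1, an activator of the ATR kinase, 0 of 55, Egfr, the EGF receptor, 1.34% and Cnrip1, a protein that binds cannabinoid receptor CB1, 1.35%.

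**Figure D4:**
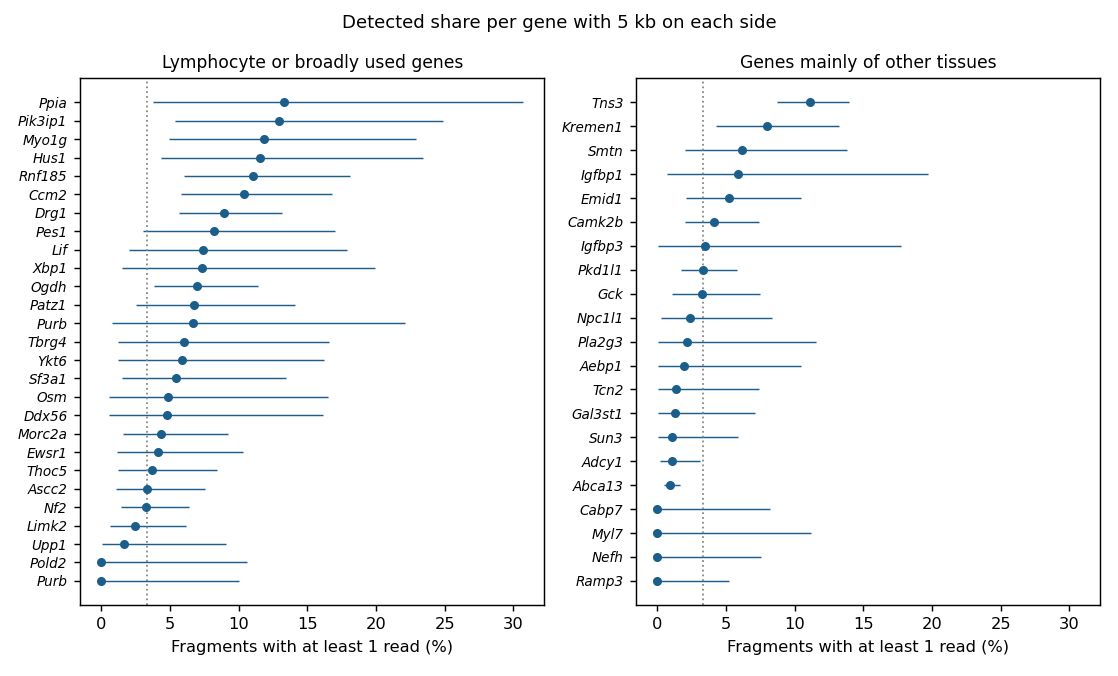
Detected share (percent of fragments, from 0) of each centromeric gene with 5 kb on each side, for the lymphocyte or broadly used genes (left) and the genes of other tissues (right). Points are genes, bars 95% Clopper-Pearson intervals and the dotted line the 3.37% of the side. Most genes on the left lie right of the line (21 of 27) and 8 of 21 on the right, with Tns3 (11.1%) highest. Over all genes of the side 49 of 91 (53.8%) lie above it.

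The fragments with most reads did not lie in the highest bin. The first was a fragment in Ccdc157, at 4059801 to 4059910, with 2059 reads. Its left end occurs 1 time in mm9 and its right end 7 times, so the placing of reads on the right end depends on the mapping. The fragment is also close to the start of Sf3a1 at 4060353. Next were fragments in Zmat5, for a protein of the minor spliceosome, with 1670 reads, and 2.62 kb from Patz1, at 3186008 to 3186509, with 1664. Smtn had 1355, Nf2, the gene of the tumour suppressor merlin, 1336, and Znrf3, a ubiquitin ligase that limits Wnt signalling, 1335. The last 4 were the fragment 11.2 kb from Tns3 printed above with 1183 reads, a fragment 22.5 kb from Gm11992 with 1170, one in Limk2 with 1134 and one in Patz1 with 1133. Together the 10 held 14039 reads, 14.9% of the reads of the side. Reads were not corrected for PCR duplicates, so a high count on a single fragment may come from few ligation events.

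Over the 29 bins the detected share went with several features of the sequence, given as descriptions of bins that share 1 library. For the number of genes r was 0.27 and rho 0.60, for GC content 0.44 and 0.63, and for unique ends 0.44 and 0.63. For the share in genes r was 0.28 and rho 0.44, and for the share with a Csp6I site 0.12 and 0.22. For distance from the bait r was 0.24 and rho 0.50, so more distant bins tended to have the higher share. Without the highest bin, r was 0.48 for genes, 0.58 for GC content, 0.58 for unique ends, 0.49 for the share in genes, 0.36 for Csp6I sites and 0.54 for distance.

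The DP library with Satb1 as bait, on chromosome 17, gives the scale of such a side difference at the same distances. Towards lower coordinates 416 of 17347 fragments were detected (2.4%), towards higher ones 247 of 18435 (1.34%). The highest 250 kb bin had 12.6% on the first side and 10.4% on the other. Unequal sides and a bin above 10% were thus also seen with another bait in DP cells. As with Ikzf1, the side towards the centromere, at lower coordinates, had the larger share and the higher bin.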

How the data were processed

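The deposited counts give the reads on each DpnII fragment of chromosome 11. The authors removed the bait sequence from 50-base reads, which left 25 bases, mapped the rest to mm9 and counted the reads of each fragment. Bowtie 1.0.0 and bcl2fastq are named in the processing notes of the submitters. PCR duplicates were not removed, and the handling of reads with several matches is not given in the sources used here. The deposited counts, which cover chromosome 11 only, total 2314166 reads. Midpoints were matched to the NCBIM37 (mm9) sequence (295446 of 295446 matched a DpnII fragment) and genes taken from GENCODE vM1. Shares of fragments with at least 1 read, with 95% Clopper-Pearson intervals, and ratios with log-normal intervals were computed in Python 3.11.15 (scipy 1.17.1). The interval code was also run on simulated data in which each fragment was detected independently. That run cannot show how the intervals behave where neighbouring fragments depend on each other. The members, gene lists and comparisons were chosen with earlier results of these data known. Named are the 4 highest and 4 lowest 250 kb bins, in each highest bin up to 6 protein-coding genes with the most detected fragments and in each lowest up to 3 with the most fragments, the 4 highest and 4 lowest genes of each list, and the 10 fragments with most reads. Other features named were chosen after their values were seen. Alternatives changed the read minimum, the fragments used, the bins and the measure. The DP Satb1 library was used for 1 comparison, and the other 4 libraries were not used here.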

Additional observations from a re-analysis of the deposited data

How the results depend on the processing

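The order of the sides held under 14 of 15 alternatives, counted by the ratio alone. The ratio of 2.86 became 1.79 inside genes and, in a setting chosen after seeing the data, 2.21 without 8 to 9 Mb. The classes of GC content were also chosen after seeing the data, and the interval included equal shares in each. The ratio was 1.42 (0.837 to 2.42) in bins under 40% GC and 1.44 (0.953 to 2.17) in bins of at least 45% GC. In bins of 40 to 45% GC it was reversed, 0.898 (0.694 to 1.16). The ratio of 3 to 4 Mb over its mirror, 1.61, became 2.31 by reads per fragment and 2.29 by capped reads. Inside genes it was reversed, 0.866 (0.560 to 1.34), with an interval that includes equal shares. Its interval also included equal shares without the first 250 kb (1.39, 0.962 to 2.02) and with Csp6I sites only (1.49, 0.985 to 2.25). Over the rest of the side the 3 to 4 Mb bin had a ratio of 1.55. This became 1.98 outside genes and 1.95 without 8 to 9 Mb, the last chosen after seeing the data. Without the first 250 kb it became 1.11 (0.857 to 1.43), and inside genes 1.21 (0.944 to 1.56). The last 2 intervals include equal shares. The highest bin had 14.1% with bins shifted by 125 kb, 17.2% with bins of 100 kb and 6.46% with bins of 1 Mb. Of the 3 highest bins, 2 or 3 stayed among the 3 highest under the 12 alternatives. The settings without the first 250 kb and without 8 to 9 Mb each remove 1 of the 3, so 2 was the most they could keep. The causes were not tested. No paired analysis was possible because there is 1 Ikzf1 library with no replicate. Depth limits single genes most, since many have under 100 fragments and few detected ones.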
